A study of Mus musculus with 11 samples.

Results

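The 10 genes described here were taken as markers of blood in RNA from mouse aortic valves. They are the adult haemoglobin genes Hba-a1, Hba-a2, Hbb-bs and Hbb-bt, the erythroid enzyme gene Alas2, and the platelet and megakaryocyte genes Pf4, Ppbp, Itga2b, Gp1bb and Gp9. They were chosen by symbol, not by a rule on their values, but with earlier results of these data known. All 10 were found among the 46983 genes counted and passed the filter on low counts. The study asked how the valve responds to wire injury in young and aging animals. Each library came from 1 wild-type mouse, of a strain the labels do not name. The aortic valves were collected 48 h after surgery, in which a wire was passed in vivo to damage the endothelial layer, or after a sham operation. Young mice were 3 to 4 months old (3 sham and 3 injured libraries) and aging mice 16 to 18 months old (3 sham and 2 injured libraries). No transgene or other agent is named for any group, and the sham mice had surgery too.

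Red cells are made from erythroid precursors that load themselves with haemoglobin, a tetramer of alpha and beta chains around haem. Mature mouse red cells have no nucleus, but the youngest of them, the reticulocytes, still carry globin mRNA and Alas2 mRNA, which encodes the first enzyme of their haem synthesis. Platelets are fragments of megakaryocytes and carry megakaryocyte mRNA. They stick to exposed matrix under a damaged endothelium through the GPIb-IX-V receptor complex, of which Gp1bb and Gp9 encode subunits, bind fibrinogen through the integrin whose alpha chain Itga2b encodes, and release the granule chemokines encoded by Pf4 and Ppbp. Pf4 is also made by tissue macrophages. In bulk RNA, fewer blood cells and less RNA per blood cell cannot be told apart.

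The promoters of the haemoglobin genes are shown because these genes moved together from library to library. Those of Pf4 and Ppbp are shown because these neighbouring chemokine genes were not shown to do so. Hba-a1 lies on chromosome 11 (chr11:32283511-32284465, plus strand, mm10) and Hba-a2 beside it (chr11:32296489-32297298, plus strand). Hbb-bs (chr7:103826534-103828096) and Hbb-bt (chr7:103812524-103813996) lie on the minus strand of chromosome 7. Ppbp (chr5:90768518-90770063) and Pf4 (chr5:90772435-90773383) lie on the plus strand of chromosome 5, with 2372 bases between them. Each sequence is the 250 bases before the RefSeq transcription start on GRCm38.p6, the assembly of mm10, read 5′ to 3′ on the gene's strand. Capitals mark matches on either strand to 4 short motifs that do not overlap here: GATAA, the core bound by GATA factors, then the CACCC box, the motif called CCAAT box, and last GGAAG, the core bound by ETS factors. The windows cover chr11:32283422-32283671, chr7:103827929-103828178, chr7:103813924-103814173, chr5:90772185-90772434 and chr5:90768268-90768517 in the order printed.
Hba-a1: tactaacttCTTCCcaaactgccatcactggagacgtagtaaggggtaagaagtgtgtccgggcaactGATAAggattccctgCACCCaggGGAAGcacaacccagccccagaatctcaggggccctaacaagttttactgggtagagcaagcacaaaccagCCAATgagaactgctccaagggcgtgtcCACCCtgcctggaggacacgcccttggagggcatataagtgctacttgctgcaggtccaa
Hbb-bs: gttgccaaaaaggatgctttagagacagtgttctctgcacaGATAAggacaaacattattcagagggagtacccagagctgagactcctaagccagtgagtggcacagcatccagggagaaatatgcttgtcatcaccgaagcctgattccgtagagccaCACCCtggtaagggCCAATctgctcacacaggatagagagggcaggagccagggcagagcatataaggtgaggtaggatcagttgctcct
Hbb-bt: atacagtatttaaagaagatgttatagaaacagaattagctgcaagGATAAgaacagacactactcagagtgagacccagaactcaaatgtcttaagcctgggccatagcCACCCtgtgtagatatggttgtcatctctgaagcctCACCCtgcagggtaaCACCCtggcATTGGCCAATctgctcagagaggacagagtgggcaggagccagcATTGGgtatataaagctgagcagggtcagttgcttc
Pf4: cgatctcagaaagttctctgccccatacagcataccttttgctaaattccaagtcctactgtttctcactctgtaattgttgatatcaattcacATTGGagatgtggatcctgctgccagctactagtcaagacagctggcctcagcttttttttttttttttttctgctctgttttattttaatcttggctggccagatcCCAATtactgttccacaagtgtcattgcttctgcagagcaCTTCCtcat
Ppbp: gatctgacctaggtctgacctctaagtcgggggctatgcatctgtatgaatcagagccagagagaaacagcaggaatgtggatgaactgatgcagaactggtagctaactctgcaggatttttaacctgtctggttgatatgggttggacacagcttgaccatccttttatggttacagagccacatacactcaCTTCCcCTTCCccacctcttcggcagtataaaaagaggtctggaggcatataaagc
Each of the 4 haemoglobin promoters and that of Alas2 held 1 GATAA match, as did that of the platelet gene Gp9, and the Pf4, Ppbp, Itga2b and Gp1bb windows held 0. Among 32851 promoter windows of this length, 22.6% held GATAA, 52.0% CACCC, 33.8% CCAAT and 64.1% GGAAG. A match is a run of letters, not a shown binding site. The Hba-a1 and Hba-a2 windows were 97.6% identical (247 identical bases, 0 mismatches and 6 gap positions), those of Hbb-bs and Hbb-bt 70.5%, and those of Pf4 and Ppbp 49.5%.

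The libraries held 27124000 to 36353474 counts. In 8 of them between 20411 and 22533 genes were detected, but in young sham 1, aging injured 1 and aging injured 2 only 18641, 18642 and 19015. Both aging injured libraries are among these 3, so that this difference and aging injury cannot be told apart. With a term for these 3 libraries, added after seeing the data, the aging injury values of 7 of the 10 members changed sign, and the young injury value of Itga2b was 1.33 on the log2 scale (edgeR adjusted p 0.291). The summed level of 10 cardiomyocyte genes ranged from 7128 to 33730 CPM (counts relative to the library total, scaled by edgeR's TMM factors) and was highest in young injured 3 and young sham 3. Heart muscle RNA was therefore present in all of the libraries, and 10 endothelial genes, the layer that the wire targets, summed to 528 to 1281 CPM.

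Haemoglobin RNA was a very small part of every library, and its level was highest in a sham library, young sham 3. The 4 genes together held 426 to 2392 counts per library. That was 0.00128% of all counts in young injured 2 (95% Clopper-Pearson interval 0.00116% to 0.00140%) and 0.00877% in young sham 3 (0.00842% to 0.00913%), the lowest and highest shares. These intervals cover counting error only. Summed, the haemoglobin level was 20.9, 42.7 and 94.3 CPM in young sham, 17.2, 12.1 and 58.5 CPM in young injured, 43.0, 42.1 and 30.8 CPM in aging sham, and 15.5 and 46.1 CPM in aging injured valves. Young sham 3 was the highest, followed by young injured 3 and aging injured 2, while the lowest 3 were also injured libraries. The sham and injured ranges overlapped at both ages.

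Hbb-bs, the more abundant of the adult beta chains, stood at 10.6, 15.4 and 37.1 CPM in young sham and at 5.64, 4.35 and 27.4 CPM in young injured valves. It stood at 18.0, 12.1 and 11.5 CPM in aging sham and at 6.43 and 12.1 CPM in aging injured valves. Young sham 3 and young injured 3 were each more than 1.5 times the other libraries of their group, and both young groups spanned most of the range. Injury gave a log2 fold change of -0.76 ± 0.65 (SE) in young and -0.58 ± 0.74 in aging valves (edgeR quasi-likelihood test, Benjamini-Hochberg adjusted p 0.799 and 0.902).

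Hba-a1, an alpha chain gene, had the same leading library in each young group. It was at 4.99, 14.2 and 28.3 CPM in young sham, 5.94, 3.49 and 17.9 CPM in young injured, 12.2, 15.1 and 9.80 CPM in aging sham, and 5.68 and 18.3 CPM in aging injured valves. The groups overlapped in every comparison. Its log2 fold change for injury was -0.80 ± 0.68 in young and -0.04 ± 0.75 in aging valves (edgeR adjusted p 0.792 and 0.995).

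The other copies, with lower levels per length, also had replicate 3 as the highest library of both young groups. Hba-a2 was at 2.29, 8.25 and 19.8 CPM in young sham, 3.78, 2.61 and 8.36 CPM in young injured, 7.46, 10.3 and 6.23 CPM in aging sham, and 1.92 and 8.53 CPM in aging injured valves. Hbb-bt was at 2.96, 4.91 and 9.18 CPM in young sham, 1.86, 1.65 and 4.87 CPM in young injured, 5.27, 4.56 and 3.33 CPM in aging sham, and 1.46 and 7.16 CPM in aging injured valves. All groups overlapped. The log2 fold change in young valves was -1.04 ± 0.72 for Hba-a2 and -1.02 ± 0.62 for Hbb-bt (edgeR adjusted p 0.736 and 0.683), with 95% intervals of -2.62 to 0.55 and -2.39 to 0.34.

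Alas2 had few counts, at most 83 in a library. It was at 0.261, 1.38 and 3.27 CPM in young sham, 0.729, 0.852 and 1.89 CPM in young injured, and 1.57, 1.94 and 1.13 CPM in aging sham valves. Aging injured 1 held 0 counts, where 3 counts would be 0.107 CPM, and aging injured 2 stood at 0.760 CPM. Both aging injured libraries were below all 3 aging sham libraries, as were 16.7% of all genes tested. The log2 fold change there was -1.996 ± 1.28 (edgeR adjusted p 0.718), a fitted value that rests on a library with no counts. The gene Apex2 overlaps Alas2 on the opposite strand, and whether strand was used in counting is not stated in the labels.

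**Figure D1:**
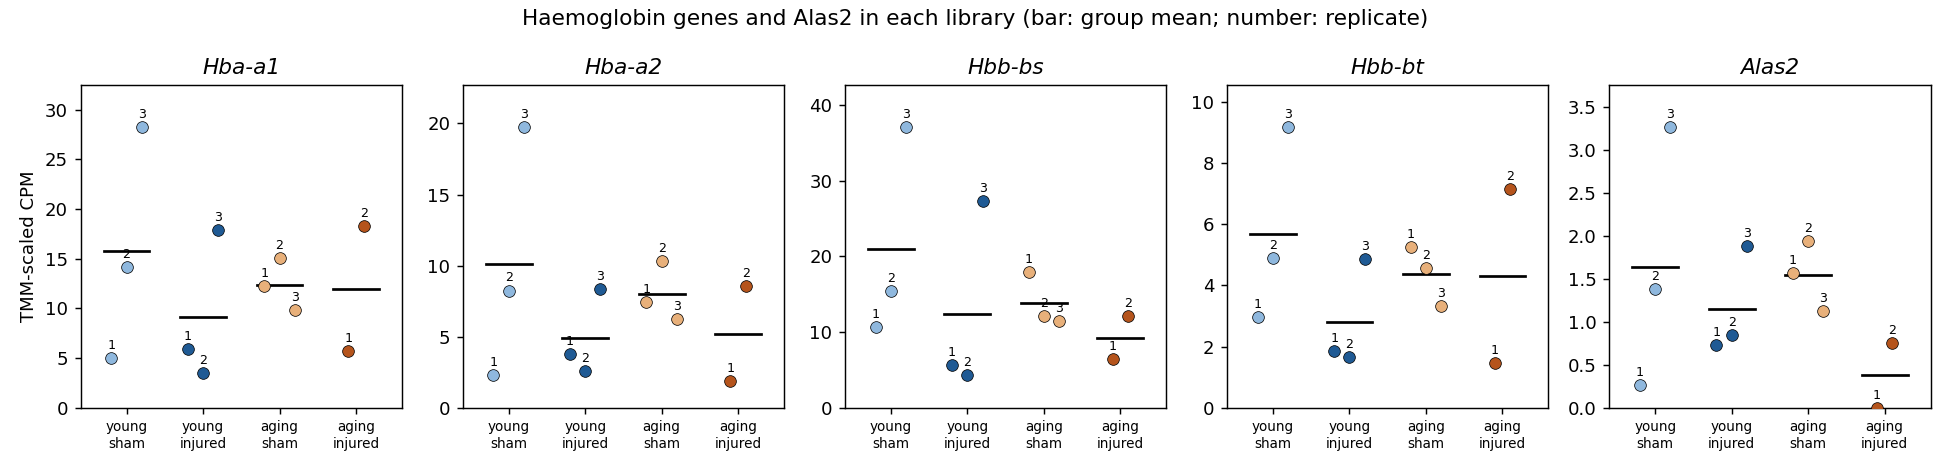
Level of each haemoglobin gene and of Alas2 (TMM-scaled CPM, linear axes from 0) in the 11 libraries by group; points are libraries with their replicate number and bars are group means. Replicate 3 is the highest library of both young groups for each of the 5 genes, reaching 37.1 CPM for Hbb-bs in young sham 3.

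Haemoglobin mRNAs followed each other across libraries. Log2 levels of Hba-a1 and Hbb-bs correlated with Pearson r = 0.879 (permutation p = 0.00024, adjusted p = 0.00192 over 8 gene pairs) and Spearman rho = 0.855 (permutation p = 0.00172) over 11 libraries. Without young injured 2 and young sham 1, the libraries farthest from the median of Hba-a1, r was 0.892. On deviations from the group means r was 0.901, and without the 3 libraries with fewer detected genes it was 0.955. For Hbb-bs and Alas2, r was 0.617 (permutation p = 0.0412, adjusted p = 0.165) and rho 0.755 (permutation p = 0.00994, adjusted p = 0.0398). That r was 0.662 without young sham 3 and young injured 2, and 0.905 without the 3 libraries with fewer detected genes. All of these values come from the same libraries and share their depth and scaling.

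The shares of the globin copies also varied between libraries, over a narrower range than the 7.79-fold range of their summed level. Hbb-bt made up 15.1% of beta counts in young injured 3 (95% Clopper-Pearson interval 12.97% to 17.45%) and 37.1% in aging injured 2 (33.4% to 40.9%), with the other 9 libraries between 18.5% and 27.5%. Hba-a2 made up 25.2% of alpha counts in aging injured 1 and 42.8% in young injured 2. The ratio of alpha to beta counts ran from 0.535 in young sham 1 to 1.53 in aging sham 2. These copies share long stretches: 56.5% of all 100-base windows of the Hba-a1 transcript also occur in Hba-a2, and 62.6% of those of Hbb-bs in Hbb-bt. In the other direction the shares were 74.5% for Hba-a2 and 54.8% for Hbb-bt. How the counting split reads from shared stretches is not stated in the labels, so the level of a single copy is uncertain.

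The libraries with the most haemoglobin were also those with the most heart muscle RNA. Young sham 3 and young injured 3 had cardiomyocyte sums of 32750 and 33730 CPM, against 7766 and 8007 CPM in young injured 1 and 2, which had the lowest haemoglobin levels of the young groups. Mitochondrial genes took 13.8% and 11.1% of counts in the former pair and 5.68% and 5.72% in the latter. The aging libraries did not follow this order: aging sham 2 had the lowest cardiomyocyte sum, 7128 CPM, beside 42.1 CPM of haemoglobin. Whether the amount of muscle tissue bears on the haemoglobin level was not tested.

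**Figure D2:**
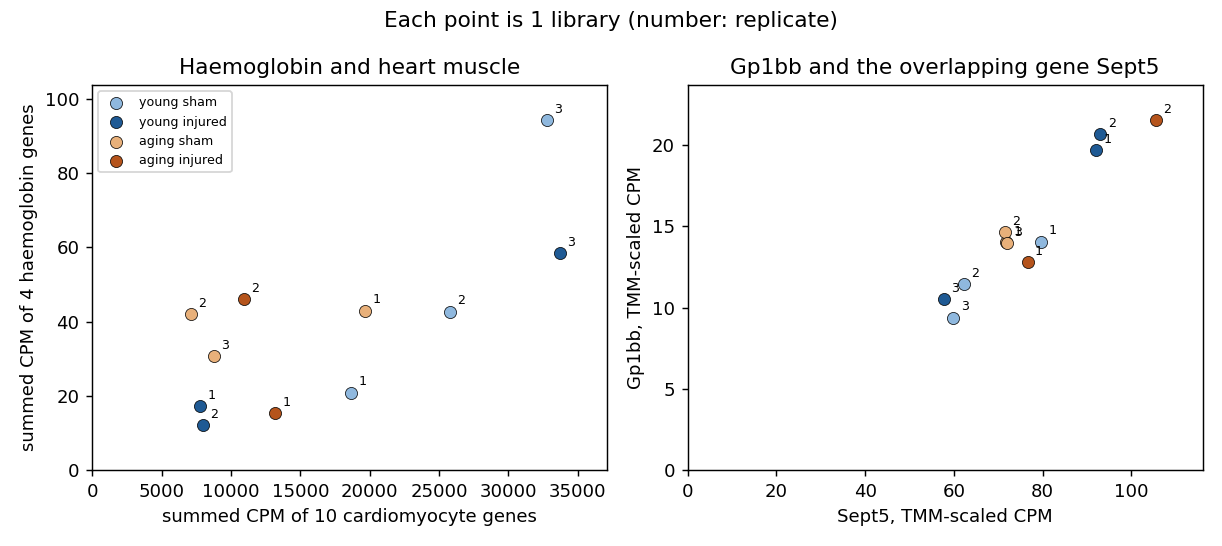
Left, summed level of the 4 haemoglobin genes against the summed level of 10 cardiomyocyte genes; right, Gp1bb against the overlapping gene Sept5 (all in TMM-scaled CPM); each point is 1 library, coloured by group. Young sham 3 and young injured 3 lie at the upper right of the left panel, and the Gp1bb level stays between 15.7% and 22.2% of the Sept5 level in the right panel.

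Genes that define developing red cells were barely detected. Among 20 red cell membrane and late erythroid genes, 19 were in the table and 10 were tested. Rhag, which encodes a membrane protein of the red cell's Rh complex, had 0 counts in every library. With 0 counts in a library, an expected count of up to about 3 is not excluded at the 95% level. Over all 11 libraries together Slc4a1, the band 3 anion exchanger, had 6 counts, Epb42 11, Hemgn 10, Car1 3, and the erythroid transcription factor genes Klf1 and Gata1 28 and 13. The 2 genes of this list with the highest CPM, Ank1 and Sptb, encode membrane skeleton proteins that heart and skeletal muscle also express. Of the 6 embryonic and minor globins, 5 had 0 counts in every library and Hbb-y had 1. In young valves the median log2 fold change of the red cell list was -0.28 and in aging valves 0.15, against 0.01 and -0.01 over all genes, and 0 of its 10 tested members were called (0 and 1 at unadjusted p under 0.05).

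The 9 haem synthesis genes were all tested, and 0 were called in either injury comparison (0 also at unadjusted p under 0.05). Their members with the highest CPM were Fech, which inserts the iron, and Alas1, the form of the first enzyme used outside erythroid cells. Their median log2 fold change was -0.14 in young and -0.14 in aging valves. Of the 9 erythroid and megakaryocyte regulators 6 were tested, with medians of -0.05 and -0.29 and 0 called (0 at unadjusted p under 0.05 in both).

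Platelet genes behaved as a mixed group. Compared per length, by the authors' RPKM values, Pf4 was the highest member at a mean of 20.04 over the 11 libraries, next to Hbb-bs at 18.7, Hba-a1 at 16.8 and Hba-a2 at 11.99. Gp1bb followed at 8.75 and Hbb-bt at 6.74. Ppbp (1.63), Itga2b (1.01), Gp9 (0.714) and Alas2 (0.592) were more than 4 times lower than those. The RPKM table gives one value, 0.133, to Ppbp in 2 libraries, Gp9 in 3 and Alas2 in 2, some of them with 0 counts, so that the value stands in for lower ones. The order of neighbours such as Pf4 and Hbb-bs is within their spread: Hbb-bs ranged from 5.72 to 47.1 RPKM and Pf4 from 13.2 to 25.4.

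Itga2b, the alphaIIb chain of the platelet fibrinogen receptor, separated injured from sham valves in the young mice. It was at 4.18, 3.28 and 2.56 CPM in young sham and 5.81, 11.0 and 5.25 CPM in young injured valves, so all 3 injured libraries were above all 3 sham libraries, as were those of 9.54% of the genes tested. The log2 fold change was 1.14 ± 0.34, a 2.20-fold difference with a 95% interval of 0.39 to 1.88 on the log2 scale. The unadjusted p was 0.00621 and the adjusted p 0.248 (edgeR), which misses the threshold. The genes called in young valves, at adjusted p under 0.1 and more than 2-fold change, were 0.418% of those tested. Young injured 2 was the highest, and without it the log2 fold change was 0.71 (adjusted p 0.877). Without young injured 3 it was 1.33 (adjusted p 0.0970), which is a call, and DESeq2 also called it at 1.12 (adjusted p 0.0604), among 268 genes against 81 by edgeR. Over the alternatives run, the adjusted p ran from 0.0604 to 0.877.

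In aging valves Itga2b overlapped between the groups, at 3.40, 4.69 and 4.35 CPM in sham and 4.54 and 5.41 CPM in injured libraries. The log2 fold change was 0.26 ± 0.37 (edgeR adjusted p 0.916, 95% interval -0.55 to 1.08). The difference between the ages in the injury effect was -0.87 ± 0.51 (edgeR interaction, unadjusted p 0.112, adjusted p 0.730), so the effects were not shown to differ.

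Ppbp, which encodes a platelet chemokine precursor, varied widely between libraries. It was at 0.0290, 0.859 and 1.30 CPM in young sham and 1.94, 6.25 and 1.04 CPM in young injured valves. It was at 0.110, 0.586 and 0.177 CPM in aging sham and 4.51 and 0.292 CPM in aging injured valves. Young injured 2 with 220 counts and aging injured 1 with 127 counts stood above the others, while aging injured 2 with 10 counts lay within the range of the sham libraries. For injury it had a log2 fold change of 2.09 ± 1.20 in young (edgeR adjusted p 0.661) and 3.02 ± 1.34 in aging valves (unadjusted p 0.0451, adjusted p 0.555). Without aging injured 1 the aging value was 0.01, and without young injured 2 the young value was 1.03. Averaged over both ages it was 2.55 ± 0.90 (edgeR, unadjusted p 0.0160, adjusted p 0.302), which DESeq2 called at 2.57 (adjusted p 0.0704). In this comparison edgeR called 115 genes, 0.594% of those tested, and DESeq2 402. Without aging injured 1 that average was 1.05.

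Gp9, a small subunit of the GPIb-IX-V complex, had at most 63 counts in a library. It held 0, 2 and 12 counts in young sham, 7, 25 and 34 in young injured, 7, 0 and 11 in aging sham and 63 and 22 in aging injured libraries. Both aging injured libraries, at 2.24 and 0.643 CPM, were above the aging sham libraries, whose highest was 0.389 CPM, as were those of 11.1% of all genes. The young groups overlapped, with sham libraries at 0, 0.0613 and 0.473 CPM and injured ones at 0.189, 0.710 and 1.07 CPM. The log2 fold change was 1.90 ± 1.44 in young and 2.88 ± 1.54 in aging valves (edgeR adjusted p 0.757 and 0.631). Averaged over both ages it was 2.39 ± 1.06 (edgeR, unadjusted p 0.0445, adjusted p 0.416).

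Gp1bb, another subunit of the same complex, was at 14.1, 11.4 and 9.38 CPM in young sham, 19.7, 20.7 and 10.5 CPM in young injured, 14.0, 14.6 and 14.0 CPM in aging sham, and 12.8 and 21.5 CPM in aging injured valves. Young injured 1 and 2 and aging injured 2 were the highest, and the groups overlapped at both ages. Gp1bb had an injury log2 fold change of 0.54 ± 0.28 in young and 0.28 ± 0.31 in aging valves (edgeR adjusted p 0.596 and 0.873). Gp1bb lies on the minus strand of chromosome 16 (chr16:18620319-18622403) and overlaps the annotated span of Sept5, a septin gene on the same strand, and reads there could be given to either. The Gp1bb level was 15.7% to 22.2% of the Sept5 level in every library, a 1.41-fold range, while Sept5 itself ranged from 57.7 to 106 CPM. Per length, Gp1bb was at a mean of 8.75 RPKM and Gp9 at 0.714. The genes of the other subunits, Gp1ba and Gp5, did not exceed 0.653 CPM in any library. The part of Sept5 reads in the Gp1bb count was not tested.

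Pf4, platelet factor 4, was the steadiest member, with a 1.97-fold range. It was at 10.4, 10.3 and 14.6 CPM in young sham, 8.26, 12.01 and 12.07 CPM in young injured, 14.9, 16.3 and 13.3 CPM in aging sham, and 15.2 and 15.9 CPM in aging injured valves. The injury groups overlapped at both ages. Injury gave Pf4 a log2 fold change of -0.13 ± 0.21 in young (95% interval -0.58 to 0.33) and 0.07 ± 0.23 in aging valves (-0.43 to 0.58), with edgeR adjusted p 0.920 and 0.970. Both intervals lie within a 2-fold change.

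Pf4 was not shown to follow its chromosomal neighbour Ppbp. The Ppbp level was 0.280% of the Pf4 level in young sham 1 and 52.0% in young injured 2. Over 11 libraries their r was -0.0883 (permutation p = 0.797, adjusted p = 0.911) and rho -0.164 (permutation p = 0.634), and r was 0.151 without young injured 1 and young sham 2. On deviations from the group means r was 0.324, and without the 3 libraries with fewer detected genes it was -0.458. The sign of this correlation is therefore not settled. The resident macrophage list, 10 genes that include Folr2, was detected in full at summed levels of 1330 to 1554 CPM in young sham, 1439 to 1679 in young injured, 1549 to 1989 in aging sham and 1845 to 1950 in aging injured valves. For Pf4 and Folr2, a surface receptor of resident macrophages, r was 0.463 (permutation p = 0.153, adjusted p = 0.408) and rho 0.536 (permutation p = 0.0943). The part of macrophage RNA in the Pf4 level was not tested.

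**Figure D3:**
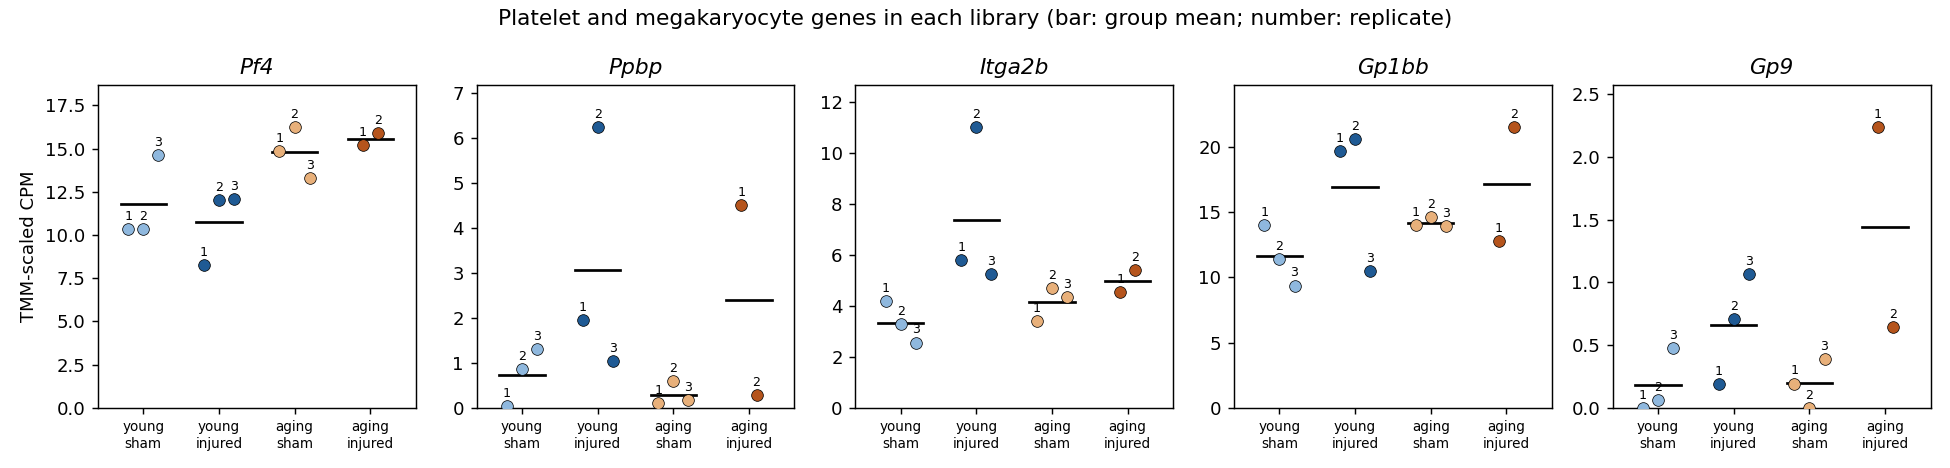
Level of each platelet and megakaryocyte gene (TMM-scaled CPM, linear axes from 0) in the 11 libraries by group; points are libraries with their replicate number and bars are group means. Itga2b is above all young sham libraries in the 3 young injured ones, Ppbp is high in young injured 2 and aging injured 1, and Pf4 stays between 8.26 and 16.3 CPM.

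**Figure D4:**
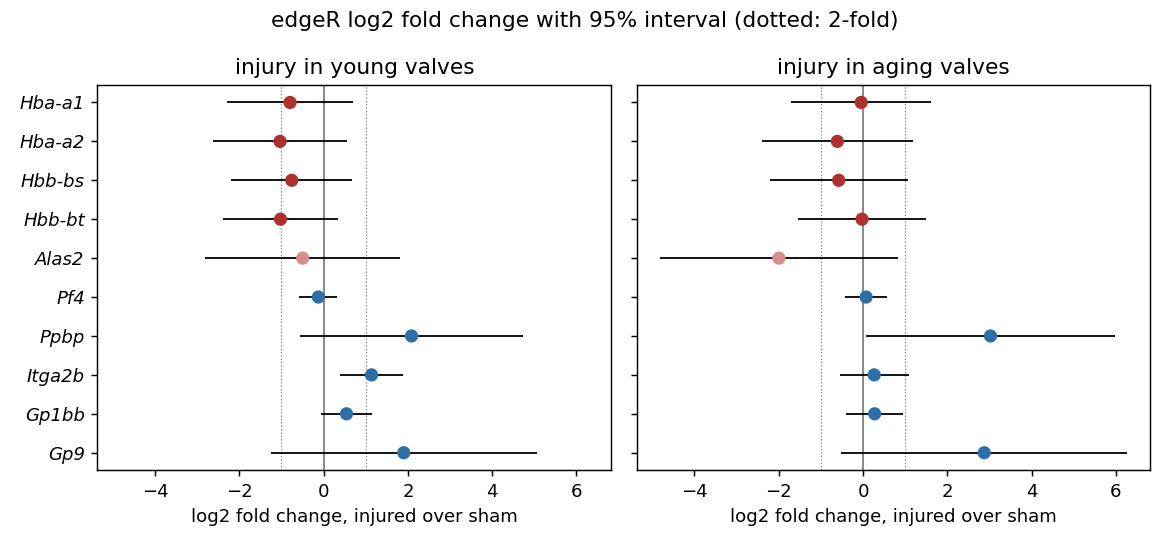
Log2 fold change of injured over sham valves for the 10 genes in young (left) and aging mice (right), from edgeR; points are estimates, lines are 95% intervals and dotted lines mark a 2-fold change. The haemoglobin genes lie at or below 0 with intervals that include 0, and only the intervals of Itga2b in young and Ppbp in aging valves lie wholly above 0.

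The summed level of the 5 platelet members was 28.6, 26.0 and 28.3 CPM in young sham, 35.9, 50.6 and 30.0 CPM in young injured, 32.6, 36.1 and 32.2 CPM in aging sham, and 39.3 and 43.8 CPM in aging injured valves. The injured libraries lay above the sham libraries of their age, narrowly in young valves. There the highest sham sum was 28.6 CPM and the lowest injured sum 30.0 CPM, against 36.1 and 39.3 CPM in aging valves. How often sums of 5 genes separate in this way was not tested. Pf4 and Gp1bb made up most of each sum, and each of these genes overlapped between sham and injured valves at both ages. The part of Sept5 reads in these sums was not tested either. Among the 10 members, 1 in young valves lay wholly above sham (Itga2b), where 9.54% of genes did, and 0 wholly below, where 5.07% did. The median log2 fold change of the 5 was 1.14 in young and 0.28 in aging valves, with 4 and 5 of them above 0. For the 4 haemoglobin genes it was -0.91 and -0.31, with 0 above 0 at either age. Over all genes the medians were 0.01 and -0.01.

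A list of 24 further platelet and megakaryocyte genes, of which 22 were tested, had 0 called in young and aging valves (6 and 0 at unadjusted p under 0.05, against 9.19% and 8.83% of all genes). Its median log2 fold change was 0.36 in young valves, with 16 above 0, and 0.41 in aging valves, with 13 above 0. The 6 in young valves were Gp5, Rgs18, Fermt3, Plek, Selp and Ptgs1. Fermt3, which encodes the integrin activator kindlin-3 of blood cells, had a log2 fold change of 0.92 ± 0.28 (edgeR adjusted p 0.271), and Selp, the P-selectin of platelet granules and endothelium, 1.66 ± 0.56 (adjusted p 0.350). Selp was at 8.80, 43.2 and 14.9 CPM in young injured and 10.2, 3.86 and 7.17 CPM in young sham valves. Gp5 had 0 counts in all 3 young sham libraries and was at 0.0540, 0.653 and 0.0943 CPM in the injured ones, where 3 counts are 0.081 to 0.118 CPM over the libraries.

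Tubb1, the platelet form of beta-tubulin, repeated the library pattern of Ppbp. It was at 0, 0.123 and 0.631 CPM in young sham, 0.648, 2.05 and 0.471 CPM in young injured, 0.0828, 0.247 and 0.142 CPM in aging sham, and 2.34 and 0 CPM in aging injured valves. Young injured 2 and aging injured 1 were again the highest. Other platelet genes of the list were mixed in aging injured valves. Treml1 was at 0 CPM there (0.0354 to 0.185 in aging sham) and Clec1b at 0 to 0.0355 CPM (0.0552 to 0.248). Gp1ba was at 0.107 to 0.117 CPM (0.0617 to 0.283), while Gp5 reached 0.462 CPM and Gp6 0.178 CPM. In a ranking of all 19366 genes tested by Pearson r with the log2 level of Ppbp over the 11 libraries, Tubb1 was second at 0.921, after Ercc6l at 0.922. For the other members ranked this way the leading genes were Gm43361 and Rrad for Hbb-bs (0.948 and 0.942), Nrn1 for Alas2 (0.964), Rasa4 and C4b for Pf4 (0.917 and 0.908) and Cmklr1 for Gp9 (0.918). For Hbb-bs the other haemoglobin genes came at ranks 45 (Hba-a1), 49 (Hbb-bt) and 238 (Hba-a2), while Itga2b and Gp1bb had r of -0.736 and -0.756. Over 11 libraries such coefficients are a description only.

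Age was compared in sham and in injured valves. In sham valves all 10 members overlapped between the ages and 0 were called (0 at unadjusted p under 0.05 by edgeR, 0 by DESeq2), where 0.0258% of all genes were called, 11.8% lay wholly above in aging sham and 9.08% wholly below. Pf4 had the lowest adjusted p, 0.658, at a log2 fold change of 0.33 ± 0.21, and the other 9 lay between 0.809 and 0.993. In injured valves 0 members were called (1 at unadjusted p under 0.05 by edgeR, 0 by DESeq2), against 0.062% of all genes. That member was Pf4, at 0.53 ± 0.23 (edgeR, unadjusted p 0.0400, adjusted p 0.381). Both aging injured libraries were above the 3 young injured libraries for Pf4, as they were for 9.89% of genes, and 0 members lay wholly below, where 14.5% of genes did. The injury and age comparisons share libraries.

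Across the injury comparisons, 0 of the 10 members were called by edgeR in young valves (1 at unadjusted p under 0.05, 1 called by DESeq2), in aging valves (1 at unadjusted p under 0.05, 0 by DESeq2) and in the average of both ages (3 at unadjusted p under 0.05, 1 by DESeq2). The background of calls was 0% in aging valves and 0% for the interaction, where 0 members were called as well (0 at unadjusted p under 0.05, 0 by DESeq2). Over all genes tested, 9.19% in young valves, 8.83% in aging valves and 11.5% in the average had an unadjusted p under 0.05. With limma on the RPKM values 0 members were called in all 6 comparisons. The haemoglobin values depended on single libraries: without young injured 3 the log2 fold change of Hbb-bs in young valves was -2.07 (edgeR adjusted p 0.0809), a call, and without young sham 3 it was -0.06. For Hba-a1 the same omissions gave -1.74 and -0.08, and for Alas2 -1.04 and 0.49.

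The neutrophil list, of which 7 of 12 genes were tested, had summed levels of 17.2, 12.8 and 17.0 CPM in young sham, 5.67, 64.5 and 21.2 CPM in young injured, 16.1, 17.1 and 14.4 CPM in aging sham, and 27.4 and 24.3 CPM in aging injured valves. Young injured 2 and aging injured 1, the highest, were also the 2 highest libraries for Ppbp. Young injured 2 was also the highest library for Itga2b and the lowest for Hbb-bs. Its S100a8 level, a defining neutrophil gene, was 2.61 CPM, the highest of the 11 libraries. Csf3r (12.7 CPM), Cxcr2 (2.95 CPM) and S100a9 (2.05 CPM) were also highest there, while Mmp9, Mmp8 and Ltf were not. Retnlg, Ly6g, Camp and Ngp held 0 counts there. Those 4 genes were at 0 in 7, 10, 6 and 9 of the 11 libraries, so their 0 does not set young injured 2 apart. Lcn2 alone was at 40.2 CPM in young injured 2. In aging injured 1 Lcn2 was at 14.0 CPM and S100a8 at 0.249 CPM. The lymphocyte list summed to 0.261 to 19.99 CPM, with 10.7, 13.2 and 19.99 CPM in aging sham and 11.2 and 7.92 CPM in aging injured valves. In aging injured 1 and 2, 5 and 4 of its 10 genes held 0 counts, against 0 in each aging sham library. Both are libraries with fewer detected genes, and the aging lymphocyte median of -1.84 rests on few counts. In young valves the median log2 fold changes were 0.86 for neutrophil, 0.18 for resident macrophage, -0.27 for lymphocyte, -0.17 for endothelial and -0.72 for cardiomyocyte genes, and in aging valves 0.22, 0.11, -1.84, 0.06 and 0.10. Of these genes 0 were called by edgeR (at unadjusted p under 0.05, 3 neutrophil genes in young valves, and 2 macrophage and 1 lymphocyte gene in aging valves). Among 10 valve interstitial and fibroblast genes Col3a1 and Vcan rose in young valves, by 1.48 ± 0.17 and 1.01 ± 0.19 on the log2 scale (edgeR adjusted p 0.00656 and 0.0644). How far these cell types bear on the member values was not tested.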

How the data were processed

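Total RNA (200 ng, DNase-treated) from single-mouse aortic valves was made into mRNA libraries and read as 150 nt pairs, per the labels' protocols. The authors deposited raw counts per gene and a table of RPKM values without mitochondrial genes and filtered on low values. TopHat2 2.1.0 and mm10 are named in the submitters' processing notes. Counter, annotation release and strand setting: not given in the sources used here. A library column that matched no sample label (1) was not used.

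Counts were tested with edgeR 4.0.16 in R 4.3.3 (filterByExpr, TMM, quasi-likelihood, 4 group means over 11 libraries, 19366 genes). A call needed a Benjamini-Hochberg adjusted p under 0.1 and more than 2-fold change, the thresholds of the series' design text. SE is the log2 fold change over the square root of F. Intervals use the t distribution with 11.15 degrees of freedom. DESeq2 1.42.0 and limma 3.58.1 (on log2(RPKM + 1) and log2(RPKM + 0.1)) were alternatives. Permutation p-values used 100000 resamples and are two-sided. The fit was tested on simulated data. The members and the 12 gene lists were chosen with earlier results of these data known. Genes outside the members are named as the genes with the highest CPM or the defining genes of a list, those under unadjusted p 0.05 in the platelet list, or the nearest patterns. Sept5, Apex2, Gp1ba, Gp6, Clec1b, Treml1, Tubb1, S100a8, Lcn2, Retnlg, Ly6g, Camp and Ngp were named after their values were seen. So were Csf3r, Cxcr2, S100a9, Mmp9, Mmp8 and Ltf. RPKM values equal to 0.133, the commonest in that table, appear to stand in for lower ones. The fold scale of RPKM tests includes the pseudocount.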

Additional observations from a re-analysis of the deposited data

How the results depend on the processing

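Of 542 alternative values for the members (all 10 in both injury comparisons, and in the others the genes with values in the text), from 21 alternatives, 520 kept their direction and side of the threshold, 18 changed sign (10 of them with 1 library left out) and 4 became calls. Over all 10 members, 23 of 208 values changed sign for age in injured valves, 18 for age in sham valves, 16 for the interaction and 8 for the average over age. The cause was not tested. Few reads in Alas2, Ppbp and Gp9 and only 2 aging injured libraries limit these values.

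An added term separating young sham 1, aging injured 1 and aging injured 2 was chosen after seeing the data. Genes called in young injury were 139 with library totals only, 268 by DESeq2 (1 member, Itga2b), 153 by limma with 0.1 added to the RPKM values and 43 with the added term, against 81. They were 16 to 447 with each library left out in turn, and members called 0 to 2. In aging injury, against 0 (1710 at unadjusted p under 0.05 by edgeR), they were 1 without the filter, 329 by DESeq2, 3 by limma with either pseudocount, 3 with the added term and 0 to 261 with a library left out. For age in sham valves, against 5, they were 14, 200, 22 (pseudocount 1), 9 (pseudocount 0.1), 1 and 1 to 10 in that order. For age in injured valves, against 12, they were 7 with library totals only, then 38, 599, 36, 40, 104 and 3 to 429. For the interaction, against 0 (1523 at unadjusted p under 0.05 by edgeR), they were 174 by DESeq2 and 3 by limma with pseudocount 0.1. For the average over age, against 115, they were 402 by DESeq2 (1 member, Ppbp), 38 by limma with pseudocount 1, 288 with the added term and 38 to 284 with a library left out.

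Pairing of the samples by replicate number was not shown. Same-numbered deviations correlated at -0.131 to 0.245, 1 of 15 pairs was over 0.1, and 1 of 11 libraries correlated best with its own number. The pair over 0.1 was young sham 3 and young injured 3, the libraries with the most haemoglobin RNA. Deviations within groups of 2 or 3 libraries cannot exclude a pairing. A replicate block gave 55 calls in young injury, 60 in the average over age and 4 for age in injured valves, with 0 members called. With it the log2 fold change changed sign for Hba-a1 in aging injury (0.036), for Hba-a1 (0.062), Hba-a2 (0.15) and Alas2 (0.59) with age in sham valves, and for Hbb-bs (0.40), Ppbp (0.34) and Gp1bb (-0.11) with age in injured valves.

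The added term changed the sign in aging injury for Hba-a1 (2.04), Hba-a2 (2.00), Hbb-bs (0.72), Hbb-bt (1.23), Alas2 (1.14), Itga2b (-0.25) and Gp1bb (-0.16). With each library left out in turn, values that changed sign ran from -1.04 to 0.49 for Alas2 and -0.22 to 0.059 for Pf4 in young injury, and in aging injury from -1.13 to 0.56 for Hba-a1, -2.06 to 0.088 for Hba-a2, -1.59 to 0.70 for Hbb-bt and -0.15 to 0.60 for Gp1bb. The correlation of Pf4 with Ppbp was 0.324 and that of Itga2b with Gp9 -0.376 on deviations from group means, against -0.0883 and 0.269, and that of Gp1bb with Gp9 was 0.00422 with library totals only, against -0.0151.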

Other observations

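The haem and iron clearance genes, which bind and break down what lysed red cells release, were all detected and tested (13 of 13). By edgeR 0 were called in young and aging valves (1 and 1 at unadjusted p under 0.05), and their median log2 fold change was 0.06 and 0.17, with 8 and 12 above 0. Hmox1, haem oxygenase, stood at 13.7, 14.0 and 22.8 CPM in young sham, 14.9, 44.5 and 26.0 CPM in young injured, 15.7, 21.3 and 18.2 CPM in aging sham, and 31.8 and 29.0 CPM in aging injured valves. Both aging injured libraries were above the aging sham libraries, as were those of 11.1% of all genes, and the young groups overlapped. Its log2 fold change was 0.76 ± 0.34 in young and 0.73 ± 0.37 in aging valves (edgeR adjusted p 0.532 and 0.618). The highest Hmox1 library, young injured 2, was the one with the least haemoglobin RNA.

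Hp, which encodes the haemoglobin-binding protein haptoglobin, ranged from 3.62 CPM in young injured 1 to 54.6 CPM in aging injured 2, and each of the 4 groups spanned more than 2-fold. Cd163, the macrophage receptor for haptoglobin and haemoglobin, was at 25.8 to 65.8 CPM. These genes were described after their values were seen.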
